A study of Mus musculus with 6 samples.

Results

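The kinesin family genes were described in the ependymal layer of mice with and without Foxj1. Members were all genes whose symbol is Kif followed by a number and at most 1 letter, which gave 37 of the 19938 genes that had 1 symbol on the array. From what each is known to do, 10 were grouped as kinesins of the cilium, 12 as kinesins of mitosis and 15 as kinesins of transport and neurons. Tissue came from FoxJ1-EGFP brains of FoxJ1 null and wildtype mice at postnatal days 1, 7 and 14, and the EGFP-positive domain was taken by laser capture. There was 1 Affymetrix whole-transcript array for each genotype and age, 6 in all. Both genotypes carried the reporter, whose construct the labels do not describe. The labels do not say how the null allele was made or how many animals went into an array, so p-values measure only the spread between these arrays. Values are log2 levels made by RMA, a background correction, normalization and probe set summary for such arrays. A difference of 1 is 2-fold, and a level belongs to its own probe set and is compared only between arrays.

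Kinesins are motors that walk along microtubules or take them apart, using ATP. Cilia are built with kinesin-2 motors, which carry the trains of intraflagellar transport towards the tip, and motile cilia hold further kinesins at the central pair of microtubules. Dividing cells use another set to build the spindle and to separate the daughter cells, and neurons use others again to carry vesicles and organelles along axons and dendrites. Ependymal cells arise from radial glia, leave the cell cycle and grow many motile cilia in the first weeks after birth, and Foxj1 is the transcription factor of the motile cilium programme.

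Foxj1 itself (probe set 10393266) read 6.89, 6.95 and 6.90 in the null at days 1, 7 and 14, against 7.68, 7.72 and 7.24 in wildtype, a mean difference of -0.63 ± 0.25 (SD over 3 ages) that did not pass limma's test (adjusted p = 0.0573). Whether this probe set lies within the altered part of the gene is not stated in the labels. The title of the series speaks of males, yet Xist read 12.35 on the null array of day 7 and 12.40 on the wildtype array of day 1, and 5.37 to 5.83 on the other 4 arrays. The Y chromosome genes Uty, Kdm5d and Eif2s3y lay between 4.53 and 5.21 on those 2 arrays. Of 10 ependymal markers 7 were called lower in the null, beside 0.667% of all genes. The mean log2 level of the 10 was 6.84 to 6.95 on the null arrays and 8.07 to 8.15 on the wildtype arrays. The list included Foxj1 itself and cilium genes such as Dnah12 and Cfap43, so it cannot give the share of ependymal cells.

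Between genotypes 3 kinesins of the cilium, Kif6, Kif9 and Kif27, were lower in the FoxJ1 null, by 1.51- to 1.79-fold. The other 7 kinesins of the cilium, the 12 of mitosis and the 15 of transport did not pass the test between genotypes. No kinesin was called higher. The count of 3 among 37 stands beside 0.667% of all genes called lower and 0.00502% called higher. All 3 probe sets also stand in the authors' deposited table of 52 probe sets, which was drawn from these same arrays and is no independent evidence of direction.

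Kif6, whose loss in mice impairs ependymal cilia, had log2 levels of 7.11, 7.28 and 7.29 in the null at days 1, 7 and 14, against 8.04, 7.90 and 8.24 in wildtype. Each null value was below each wildtype value. The mean difference was -0.84 ± 0.19 (SD, n = 3 ages), a 1.79-fold decrease with a 95% interval of -1.09 to -0.59 (limma adjusted p = 0.00647). In the authors' deposited table the linear intensity of this probe set was 138, 155 and 156 in the null and 264, 239 and 303 in wildtype at days 1, 7 and 14. A second probe set of Kif6 (10445855) read 7.07, 7.02 and 7.09 in the null and 7.27, 7.30 and 7.37 in wildtype. It was lower at every age as well, but by -0.26 and without a call in a fit over single probe sets (adjusted p = 0.686). With both probe sets averaged the difference of Kif6 was -0.55 (adjusted p = 0.0487).

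Kif9, a kinesin of the central pair apparatus, read 7.09, 7.47 and 7.48 in the null at days 1, 7 and 14, against 8.21, 8.17 and 8.14 in wildtype. The wildtype arrays spanned 8.14 to 8.21 and lay above all null arrays, and the lowest null array was that of day 1. The genotype difference was -0.83 ± 0.26 (SD, n = 3 ages), or 1.77-fold (interval -1.10 to -0.56, adjusted p = 0.012). Kif27, which with the kinase Stk36 takes part in assembly of the central pair, read 7.05, 7.06 and 6.91 in the null at days 1, 7 and 14, against 7.80, 7.60 and 7.41 in wildtype. Here too the genotypes did not overlap. Kif27 fell by 1.51-fold in the null, a difference of -0.60 ± 0.13 (SD, n = 3 ages; interval -0.83 to -0.36, adjusted p = 0.038). These 3 were the only kinesins whose null and wildtype arrays did not overlap, which over all genes held for 4.39% with the null lower and 1.76% with the null higher. The null array was the lower one at each of the 3 ages in 11 kinesins, beside 15.9% of all genes, and the higher one at each age in 2, beside 7.90%.

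**Figure D1:**
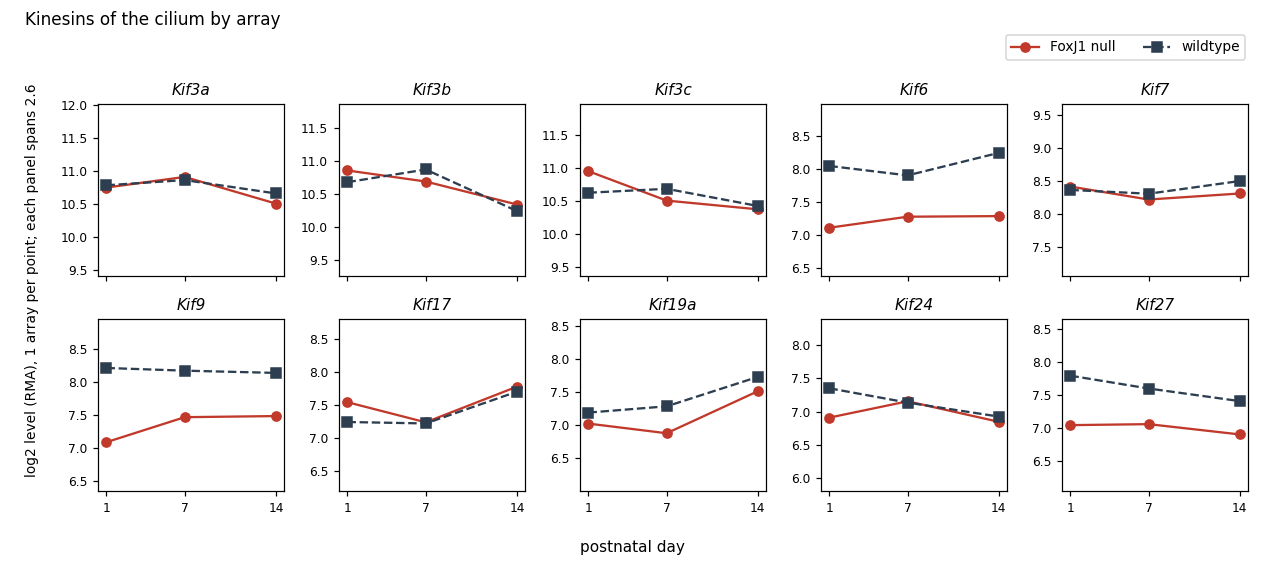
Log2 level (RMA) of the 10 kinesins of the cilium on each of the 6 arrays against postnatal day, with FoxJ1 null as red circles and wildtype as dark squares, 1 array per point and no error bars. Each panel spans 2.6 log2 units. The red points lie below the dark ones at all 3 ages in Kif6, Kif9, Kif27 and Kif19a, and the curves meet or cross in 5 of the other panels, while Kif17 is slightly higher in the null throughout.

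The start regions of the 3 called genes are shown because these genes fell together. Sequences are from RefSeq (GRCm38.p6), 100 bases before to 30 after the start site, 5′ to 3′ along the gene. Capitals mark GTTGCC or its variant GTTACC or its variant GTTTCC, which are part of an X-box, the sequence read by RFX factors. A whole X-box was not searched for. Capitals also mark the letters of a forkhead site, which are TAAACA or the longer form TGTTTAC. Both strands were searched.
Kif6, chr17:49615072-49615201 (+ strand): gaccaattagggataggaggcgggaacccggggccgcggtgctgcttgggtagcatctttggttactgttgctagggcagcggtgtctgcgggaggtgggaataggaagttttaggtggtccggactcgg
Kif9, chr9:110476858-110476987 (+ strand): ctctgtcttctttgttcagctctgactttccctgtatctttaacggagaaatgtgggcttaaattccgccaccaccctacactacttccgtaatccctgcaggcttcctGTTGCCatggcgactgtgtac
Kif27, chr13:58354918-58355047 (- strand): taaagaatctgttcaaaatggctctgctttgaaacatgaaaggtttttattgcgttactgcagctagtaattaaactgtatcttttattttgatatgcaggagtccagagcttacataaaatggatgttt
Kif9 held the X-box part GTTGCC in the windows of both its listed starts, which overlap and hold the same site. Neither Kif6 nor Kif27 held such a part in the full window of 250 bases before to 50 after the start. The listed start of Kif27 follows letters typical of an intron end. Its window may thus not be a promoter, and nothing is drawn from it about the Kif27 promoter. Over the kinesins of the cilium 6 of 10 windows (9 genes had at least 1 window) held one of these parts. The 10 include the window of Kif27, and the Kif9 site is counted in both Kif9 windows. Over all 32851 windows the share was 34.2%. The forkhead letters TAAACA were in 0 of the 10 and in 13.4% of all windows, and TGTTTAC in 0 of the 10 and in 3.65%. A match is a description of letters and not of a bound site.

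Of the other kinesins of the cilium, Kif19a, which shortens microtubules at the cilium tip and limits cilium length, came nearest. It read 7.02, 6.88 and 7.51 in the null at days 1, 7 and 14, against 7.19, 7.29 and 7.73 in wildtype. The null array was the lower one at each age, but values of different ages overlapped and the difference of -0.26 ± 0.13 (SD, n = 3 ages) did not pass (adjusted p = 0.767). Kif24, a centriole kinesin known from human cells to restrain cilium growth, differed by -0.17 (interval -0.43 to 0.10), with -0.44 at day 1 and 0.02 and -0.08 at days 7 and 14.

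The kinesin-2 motors were not called. The differences were -0.05 for Kif3a (interval -0.28 to 0.18) and 0.03 for Kif3b (interval -0.22 to 0.28), the pair that pulls transport trains. For Kif3c, the neuronal partner of Kif3a, the difference was 0.03 (interval -0.24 to 0.30). Kif17, the homodimeric kinesin-2, had 0.13 (interval -0.11 to 0.37), and Kif7, the Hedgehog regulator of the primary cilium tip, -0.08 (interval -0.31 to 0.16). These intervals leave out a fall as large as the 1.51-fold of Kif27, whose log2 difference was -0.60. The adaptor Kifap3, which joins Kif3a and Kif3b, had a difference of -0.12 (adjusted p = 1.00).

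Genes that work with these motors were also compared. Of 18 measured genes of the central pair apparatus 7 were lower, 0 were higher and 11 were not called, with a median difference of -0.56 beside -0.01 over all genes. Cfap54 (-1.36), Cfap65 (-1.31), Hydin (-1.10) and Cfap70 (-0.99) had the largest falls. Stk36, the kinase partner of Kif27, had a difference of -0.55 ± 0.42 (SD, n = 3 ages; adjusted p = 0.296). Of 24 genes of intraflagellar transport 0 were called by limma, 9 had an unadjusted p below 0.05 and 23 had a negative difference (median -0.21). Over all 19938 genes 1180 had an unadjusted p below 0.05 and 10928 a negative difference. A further list held 12 measured partner genes of kinesins, among them Kifc2, itself a kinesin whose symbol lies outside the rule for members. Of these 12, 0 were called and 0 had an unadjusted p below 0.05. Klc1, a light chain of kinesin-1, was farthest from 0 (-0.19, limma adjusted p = 0.974).

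Beside these falls, the mean log2 level of 10 choroid plexus markers was 8.25 to 8.79 on the null arrays and 9.15 to 9.33 on the wildtype arrays. Of these markers 3 were called lower and 10 had a negative difference, and Ttr, which encodes transthyretin, was lower by 2.47-fold (adjusted p = 0.00049). Choroid plexus cells carry cilia too, and their part in the kinesin differences was not tested. Fewer ciliated cells in a capture and less RNA per cell cannot be told apart in such samples. Calls of Kif6 and Kif9 were lost when the 2 arrays of high Xist were left out and age was made linear together (-0.81, adjusted p = 0.106, and -0.80, adjusted p = 0.111) and in a model without age (adjusted p = 0.0622 and 0.0882). The call of Kif27 was lost in these fits (-0.57, adjusted p = 0.277, and -0.60, adjusted p = 0.276) and after a further quantile normalization (-0.57, adjusted p = 0.0524). It was also lost without the arrays of day 1 (-0.52, adjusted p = 0.0964) or day 7 (-0.63, adjusted p = 0.0873). With the log2 level of Xist as a covariate on all 6 arrays, all 3 kept their calls. The differences there were -0.84 for Kif6, -0.83 for Kif9 and -0.60 for Kif27 (limma adjusted p = 0.0108, 0.0155 and 0.0432).

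**Figure D2:**
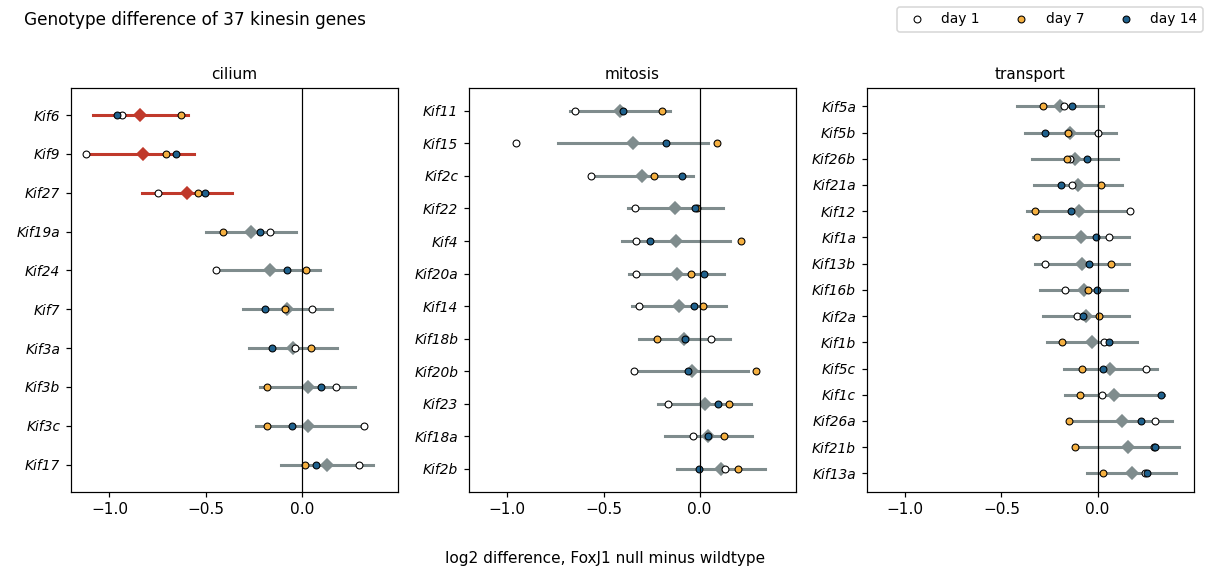
Log2 difference, FoxJ1 null minus wildtype, of the 37 kinesins in their 3 groups. Diamonds and bars give the mean difference and its 95% interval from limma, in red where the gene was called and in grey otherwise, and small circles give the single pair of arrays of day 1, 7 or 14. Kif6, Kif9 and Kif27 have all 3 circles below -0.50, and no grey bar reaches beyond -0.74.

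Among the kinesins of mitosis the largest genotype differences were those of Kif11, Kif15 and Kif2c, and none passed. Kif11, the motor that pushes spindle poles apart, read 8.69, 8.34 and 7.22 in the null at days 1, 7 and 14, against 9.34, 8.53 and 7.62 in wildtype. It was lower in the null at each age, by -0.65, -0.19 and -0.40 (mean -0.41, adjusted p = 0.329). Kif15, a second motor that helps to hold the spindle bipolar, read 7.42, 7.94 and 6.82 in the null at days 1, 7 and 14, against 8.38, 7.85 and 7.00 in wildtype. Its difference was -0.96 at day 1 and 0.09 and -0.18 at days 7 and 14, so the mean of -0.35 (adjusted p = 0.928) lay mostly in the day 1 pair. Kif2c, a microtubule depolymerase of the kinetochore, read 8.04, 8.01 and 7.25 in the null at days 1, 7 and 14, against 8.61, 8.25 and 7.34 in wildtype. It too differed most at day 1 (-0.56, mean -0.30, adjusted p = 0.767).

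At day 1, 10 of the 12 kinesins of mitosis were lower on the null array, with a median difference of -0.33 beside 0.03 over all genes, of which 8875 of 19938 were lower. At day 7, 5 of 12 were lower (median 0.05), beside 12643 of all 19938 genes (median -0.06). At day 14, 9 of 12 were lower (median -0.05), beside 11042 of all genes (median -0.02). The 19 measured spindle and midbody partners had a median of -0.42 at day 1, where 18 were lower, and of -0.09 and 0.00 at days 7 and 14. Other lists were low in the day 1 pair too: 23 of 24 genes of intraflagellar transport (median -0.32), 7 of 7 endothelial markers (-0.46) and 7 of 9 astrocyte markers (-0.29). With 1 array per genotype at an age these values have no test. The wildtype array of day 1 was 1 of the 2 with high Xist, and the part of that in the day 1 values was not tested. Of the 12, 0 were called between genotypes by limma, and 2 (Kif11 and Kif2c) had an unadjusted p below 0.05.

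The 15 kinesins of transport and neurons had genotype differences between -0.20 and 0.18. Limma called 0 of them, and 0 had an unadjusted p below 0.05. Kif5a, a neuronal heavy chain of conventional kinesin, was farthest from 0 on the negative side, with 10.91, 11.03 and 11.47 in the null at days 1, 7 and 14, against 11.09, 11.31 and 11.60 in wildtype. The null array was lower at each age and the genotypes overlapped across ages (-0.20 ± 0.08, SD, n = 3 ages; adjusted p = 0.938). Kif13a, a vesicle motor, was at the other end (0.18 ± 0.13, SD, n = 3 ages; interval -0.06 to 0.41, adjusted p = 0.992). Kif1a, which carries synaptic vesicle precursors, had -0.09, and Kif1b, which carries vesicles and mitochondria, -0.03.

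Between days 1 and 14 the kinesins of mitosis fell. Of the 12, 11 were lower at day 14 than at day 1, by 1.49- to 3.02-fold, and the remaining one, Kif2b, was not called. In the other groups Kif3b, Kif21b, Kif26a and Kif5c were lower at day 14 and Kif19a and Kif5a were higher. That made 15 kinesins lower and 2 higher, beside 6.29% of all genes called lower and 7.50% called higher. The age comparison used both genotypes, with 2 arrays per age.

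Kif11 had the largest fall. It read 7.22 and 7.62 on the null and wildtype arrays of day 14, against 8.69 and 9.34 on those of day 1, with 8.34 and 8.53 on day 7. The values went down at each step in both genotypes, and the difference of day 14 minus day 1 was -1.59 (SE 0.14), or 3.02-fold (adjusted p = 0.000213). Kif4, a chromosome-bound kinesin that also shapes the midzone of the dividing cell, read 6.06 and 6.32 on the null and wildtype arrays of day 14, against 7.45 and 7.78 on those of day 1, with 7.45 and 7.23 on day 7. On the null arrays days 1 and 7 were alike, and the drop lay between days 7 and 14. Its age difference was -1.43 (SE 0.15), or 2.69-fold (adjusted p = 0.000517). The Kif4 gene is on the X chromosome, and its pseudogene Kif4-ps has 2 probe sets of its own, neither of which was called (-0.15 and -0.16).

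Kif23, a subunit of centralspindlin, which sets up cytokinesis, had levels of 7.63 and 7.54 on the null and wildtype arrays of day 14, against 8.61 and 8.78 on those of day 1, with 8.43 and 8.28 on day 7. It fell by 2.16-fold (-1.11, SE 0.13, adjusted p = 0.000845), and all 4 arrays of days 1 and 7 lay above both of day 14. Kif2c read 7.25 and 7.34 on the null and wildtype arrays of day 14 and 8.04 and 8.61 on those of day 1, a 2.05-fold fall (-1.03, SE 0.14, adjusted p = 0.0018). Kif20b, a motor of late cytokinesis, had 6.18 and 6.24 on the null and wildtype arrays of day 14, against 7.00 and 7.35 on those of day 1, with 7.23 and 6.94 on day 7. Its null value was highest at day 7, and the fall by day 14 was 1.95-fold (-0.96, SE 0.16, adjusted p = 0.00417).

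Kif15 fell by 1.98-fold (-0.99, SE 0.21, adjusted p = 0.0145), with unequal steps in the genotypes: -0.60 between days 14 and 1 in the null and -1.38 in wildtype. Kif20a, which brings the chromosomal passenger complex to the midzone, had 7.12 and 7.10 on the null and wildtype arrays of day 14, against 7.70 and 8.03 on those of day 1, with 7.87 and 7.91 on day 7. It was lower at day 14 by 1.68-fold (-0.75, SE 0.14, adjusted p = 0.0063), and its values of days 1 and 7 were close. Kif18a, which damps chromosome movement at the spindle equator, read 6.38 and 6.34 on the null and wildtype arrays of day 14, against 7.07 and 7.10 on those of day 1, with 7.26 and 7.13 on day 7. The 2 genotypes ran together here, and the fall of 1.65-fold (-0.72, SE 0.12, adjusted p = 0.00499) came after day 7.

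Kif22, a chromosome-bound motor, read 7.29 and 7.31 on the null and wildtype arrays of day 14, against 7.74 and 8.08 on those of day 1, with 7.75 and 7.76 on day 7, and fell by 1.53-fold (-0.61, adjusted p = 0.0156). Kif18b, a depolymerase of astral microtubules, had 7.40 and 7.48 on the null and wildtype arrays of day 14, against 8.06 and 8.0 on those of day 1, with 7.67 and 7.89 on day 7, a 1.51-fold fall (-0.59, adjusted p = 0.0148). Kif14, a cytokinesis motor, had 5.91 and 5.94 on the null and wildtype arrays of day 14, against 6.34 and 6.65 on those of day 1, with 6.28 and 6.26 on day 7, a 1.49-fold fall (-0.57, adjusted p = 0.0207). In all 3 both day 14 arrays were below both day 1 arrays. Kif2b had levels between 5.97 and 6.29 on all 6 arrays and an age difference of -0.09 (interval -0.37 to 0.19). The median age difference of the 12 was -0.86, beside -0.01 over all genes.

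**Figure D3:**
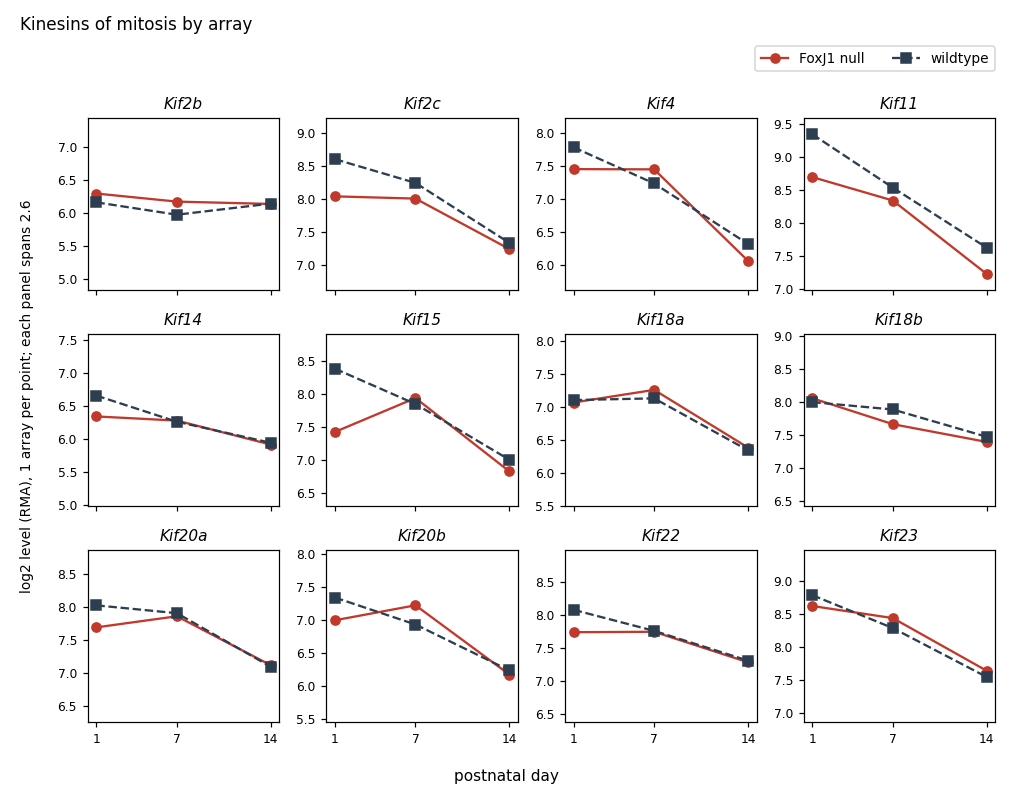
Log2 level (RMA) of the 12 kinesins of mitosis on each array against postnatal day, with FoxJ1 null as red circles and wildtype as dark squares, 1 array per point and no error bars. Each panel spans 2.6 log2 units. In every panel but that of Kif2b the day 14 points are the lowest of their curve, and the gap between genotypes at day 1 is widest in Kif15 (-0.96) and Kif11 (-0.65).

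In the null, where the arrays of days 14 and 1 both had low Xist, all 12 kinesins of mitosis were lower at day 14 than at day 1, with a median difference of -0.67. In wildtype all 12 were lower as well (median -1.02), there with high Xist at day 1. Most of this lay in the second week: the median of day 14 minus day 7 was -0.78 in the null and -0.76 in wildtype, while that of day 7 minus day 1 was -0.02 in the null and -0.38 in wildtype. The null array of day 7 also had high Xist, so only day 14 minus day 7 in wildtype joined arrays that both had low Xist. The part of this in the timing was not tested. The slope of the kinesins of mitosis over 13 days was not shown to differ between genotypes. No kinesin passed that test, 0 had an unadjusted p below 0.05, and the largest slope difference was that of Kif15 (0.74, interval from limma -0.38 to 1.86, adjusted p = 1.00). Of the 12, 10 had a positive slope difference and 2 a negative one (median 0.25). Over all 19938 genes 8517 were positive (median -0.05). The part of the wildtype array of day 1, with its high Xist, was not tested.

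The partners of these motors were set beside them. Of 19 measured spindle and midbody genes 15 fell and 1 rose. Top2a (-1.59), the proliferation marker Mki67 (-1.58), Ect2 (-1.36) and Prc1 (-1.35), the last a microtubule bundler of the midzone that works with Kif4, had the largest falls. The gene that rose was Cit, which encodes citron kinase (0.51, adjusted p = 0.04).

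The start regions of Kif11, Kif4, Kif23, Kif15 and Kif20b are shown as 5 of the kinesins of mitosis that fell, chosen after their windows were seen because the marked letters lie within the printed stretch. Kif2c also fell, and its TTTGAA begins at -103 from the start, so that it is not printed. Capitals mark CCAAT, the letters read by NF-Y, and TTTGAA or TTCGAA, the cell cycle genes homology region through which many mitotic genes are switched off in resting cells, on either strand, so that ATTGG and TTCAAA are the same letters read from the other strand. Sequences are again RefSeq, GRCm38.p6, 100 bases before to 30 after the start.
Kif11, chr19:37376282-37376411 (+ strand): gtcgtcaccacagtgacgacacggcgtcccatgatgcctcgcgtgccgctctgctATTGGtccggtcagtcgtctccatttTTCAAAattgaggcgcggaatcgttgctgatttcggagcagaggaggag
Kif4, chrX:100625965-100626094 (+ strand): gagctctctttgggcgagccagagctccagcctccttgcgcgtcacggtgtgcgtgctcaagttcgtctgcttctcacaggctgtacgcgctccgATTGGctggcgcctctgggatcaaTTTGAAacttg
Kif23, chr9:61946770-61946899 (- strand): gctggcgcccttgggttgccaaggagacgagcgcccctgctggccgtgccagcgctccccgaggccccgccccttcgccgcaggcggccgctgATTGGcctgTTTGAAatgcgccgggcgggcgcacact
Kif15, chr9:122950981-122951110 (+ strand): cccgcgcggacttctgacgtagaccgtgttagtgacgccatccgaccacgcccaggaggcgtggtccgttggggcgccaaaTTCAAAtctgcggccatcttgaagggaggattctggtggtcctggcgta
Kif20b, chr19:34922258-34922387 (+ strand): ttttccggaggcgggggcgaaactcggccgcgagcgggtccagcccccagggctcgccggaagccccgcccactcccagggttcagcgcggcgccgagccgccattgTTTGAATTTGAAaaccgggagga
In the full windows of 300 bases, TTTGAA or TTCGAA was present in 9 of the 11 kinesins of mitosis that had a window (81.8%), against 2 of 10 windows of kinesins of the cilium, 2 of 14 of kinesins of transport and 19.2% of all windows. The 2 without it were Kif2b and Kif18a. CCAAT was present in 7 of 11 windows (63.6%) of the mitotic group and in 37.4% of all windows. Kif27, a kinesin of the cilium, held TTTGAA in 3 places of its window. The listed starts of Kif14 and Kif27 and the second listed start of Kif1a follow letters typical of an intron end. Their windows may thus not be promoters, yet each is counted above as a window with TTTGAA. The shares describe letters, and nothing is drawn from them about binding.

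Among the kinesins of transport and neurons, 3 fell and 1 rose with age. Kif21b, a neuronal kinesin that limits microtubule growth, read 10.04 and 9.74 on the null and wildtype arrays of day 14, against 11.17 and 10.88 on those of day 1, with 10.71 and 10.83 on day 7. The arrays of day 14 lay below all others, and the fall was 2.20-fold (-1.14, SE 0.14, adjusted p = 0.00112) with nearly the same value in the null (-1.14) and in wildtype (-1.14). Kif26a, a kinesin without ATPase activity that takes part in signalling, read 8.48 and 8.25 on the null and wildtype arrays of day 14, against 9.16 and 8.86 on those of day 1, with 8.58 and 8.73 on day 7 and fell by 1.56-fold (-0.65, adjusted p = 0.0163).

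The 3 heavy chains of conventional kinesin, which bind the same light chains, did not move together. Kif5a, the neuronal form, rose by 1.44-fold (0.53, SE 0.12, adjusted p = 0.0202), with 11.47 and 11.60 on the null and wildtype arrays of day 14, against 10.91 and 11.09 on those of day 1, with 11.03 and 11.31 on day 7. Kif5c, also neuronal, fell by 1.51-fold (-0.60, SE 0.13, adjusted p = 0.0165), with 10.41 and 10.39 on the null and wildtype arrays of day 14, against 11.12 and 10.87 on those of day 1, with 10.82 and 10.91 on day 7. Kif5b, the form found in most cells, had an age difference of 0.08 (interval -0.21 to 0.36). The day 14 arrays were thus the highest for Kif5a and the lowest for Kif5c in both genotypes.

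Other transport kinesins were not called. Kif1b had -0.36 (adjusted p = 0.0975), Kif26b, the relative of Kif26a, -0.29 (adjusted p = 0.151), Kif13a -0.28 (adjusted p = 0.188) and Kif1c, a motor between Golgi and cell edge, 0.26 (adjusted p = 0.288). Kif1a (-0.17), Kif21a (-0.16), Kif12 (-0.11), the endosome motor Kif16b (-0.09), Kif2a, a depolymerase of growing axons (-0.04), and Kif13b (0.07) were nearer to 0.

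Among the kinesins of the cilium, Kif19a was the one that rose. It read 7.51 and 7.73 on the null and wildtype arrays of day 14, against 7.02 and 7.19 on those of day 1, with 6.88 and 7.29 on day 7. Its day 14 arrays lay above all others, and the rise was 1.43-fold (0.52, SE 0.13, adjusted p = 0.026). Kif17 had a change of 0.35 in the same direction that did not pass (adjusted p = 0.115). Kif3b, in contrast, fell by 1.39-fold, with 10.34 and 10.24 on the null and wildtype arrays of day 14, against 10.86 and 10.68 on those of day 1, with 10.69 and 10.87 on day 7 (-0.48, SE 0.14, adjusted p = 0.0452). Its partner Kif3a and Kif3c, the other partner of Kif3a, had negative values that did not pass. These were -0.18 for Kif3a (limma adjusted p = 0.407) and -0.39 for Kif3c (limma adjusted p = 0.119).

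The 3 kinesins that fell in the null had no called age change. The differences of day 14 minus day 1 were 0.19 for Kif6 (adjusted p = 0.436), 0.16 for Kif9 (adjusted p = 0.56) and -0.26 for Kif27 (adjusted p = 0.225). Kif7 had 0.02 and Kif24 -0.25 (adjusted p = 0.964 and 0.325). Of the Hedgehog partners of Kif7, 3 of 10 fell, namely Gpr161 (-1.38), Gli3 (-0.71) and Smo (-0.50).

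**Figure D4:**
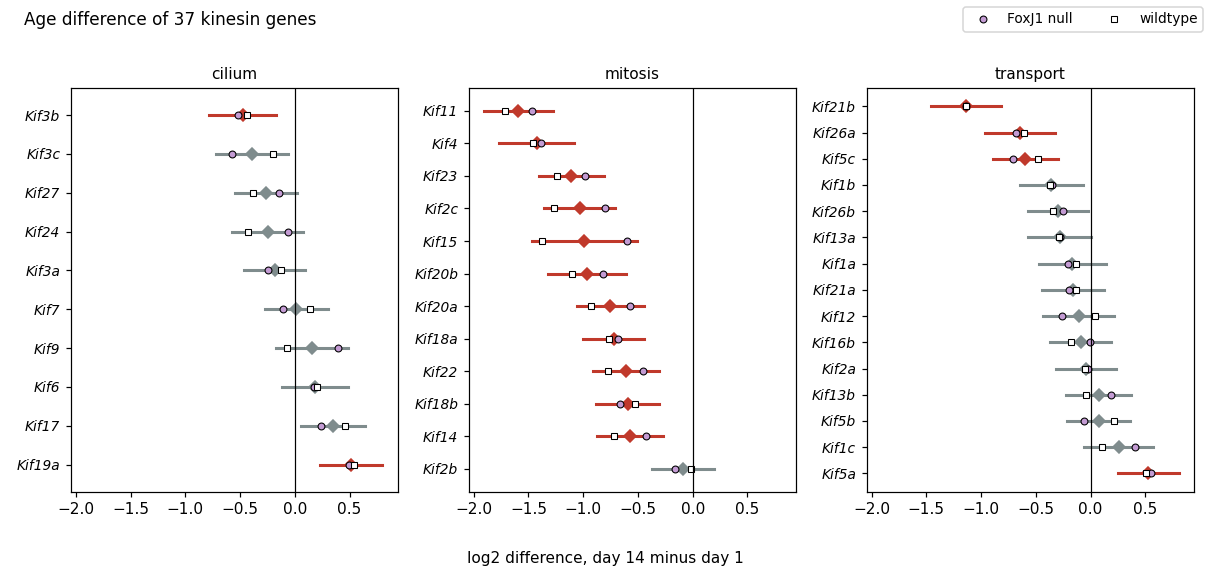
Log2 difference, day 14 minus day 1, of the 37 kinesins in their 3 groups. Diamonds and bars give the difference and its 95% interval from limma over both genotypes, in red where the gene was called and in grey otherwise. Small purple circles give FoxJ1 null and white squares wildtype, each 1 array against 1. In the mitosis panel 11 of 12 bars are red and left of 0, in the transport panel 3 lie left and Kif5a right, and in the cilium panel Kif3b lies left and Kif19a right.

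Markers of other cells moved with age in the same arrays. Of 11 measured neuroblast markers 8 fell, and their mean log2 level was 10.17 and 10.36 on the null and wildtype arrays of day 14, against 11.06 and 11.04 on those of day 1. Of 9 measured oligodendrocyte markers 9 rose (mean level 10.50 and 10.96 at day 14, against 7.56 and 7.57 at day 1), with Mag higher by 27.8-fold. Of 12 neuron markers 8 rose and 1, Syt4, fell, and 8 of 9 astrocyte and 8 of 10 microglia markers rose. The part of these shifts in the kinesin changes was not tested. Leaving out the wildtype array of day 1 left 8 of the 11 mitotic calls, without Kif14, Kif15 and Kif22, and leaving out that of day 14 left 8, without Kif14, Kif18b and Kif22. Kif5a was not called without any 1 of the 4 arrays of days 1 and 14 (adjusted p = 0.0584 to 0.204), and Kif3b not without 3 of them (adjusted p = 0.157 to 0.27). Kif19a was not called without the null array of day 14 or either wildtype array of days 1 and 14 (adjusted p = 0.0981 to 0.209), Kif5c not without either null array or the wildtype array of day 14 (adjusted p = 0.0584 to 0.128), and Kif26a not without the null array of day 1 or the wildtype array of day 14 (adjusted p = 0.0949 and 0.103).

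Whether any kinesin changed with age differently in the 2 genotypes was asked with the product of genotype and day. Limma called 0 of 37 kinesins and 0 of 19938 genes (0%), with 596 genes at an unadjusted p below 0.05 and 0 kinesins among them. The most positive values, null minus wildtype over 13 days, were those of Kif15 (0.74), Kif2c (0.46) and Kif9 (0.46). Kif9 was higher on the null array of day 14 than on that of day 1 by 0.40 and lower in wildtype by -0.07. The most negative were those of Kif3c (-0.36), Kif12 (-0.29) and Kif5b (-0.27). Kif3c read 10.95, 10.50 and 10.37 in the null at days 1, 7 and 14, against 10.62, 10.68 and 10.42 in wildtype, so that the null array was the higher one at day 1 and slightly the lower one at days 7 and 14. Kif12, a kinesin of kidney and other epithelia, read 6.72, 6.27 and 6.46 in the null at days 1, 7 and 14, against 6.55, 6.60 and 6.59 in wildtype. Kif5b read 10.68, 10.68 and 10.61 in the null at days 1, 7 and 14, against 10.68, 10.83 and 10.89 in wildtype, with equal values at day 1. Without the null array of day 1 the slope difference was -0.68 for Kif15, -0.14 for Kif2c and 0.31 for Kif12, and without the wildtype array of day 14 it was -0.04 for Kif2c.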

How the data were processed

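RNA of the laser-captured layer was measured on 6 arrays, 3 per genotype and 2 per age. The deposited values are log2 levels of 35557 probe sets that RMA produced (per the submitters' processing notes); its version is not known here. A deposited table of 52 probe sets holds linear intensity from the authors. Array medians lay between 7.72 and 7.81, so nothing more was normalized, and the small number of arrays limits the precision. Probe sets with 1 symbol (21789) were used, 1621 with several and 12147 with none were not, and the brightest per gene was kept, with no filter on dim genes. Limma 3.58.1 in R 4.3.3 fitted genotype and age as a factor over all genes (2 residual degrees of freedom). The slope fit used genotype, day and their product. Calls are at a Benjamini-Hochberg adjusted p under 0.05, and tests are two-sided.

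The fits were tested on simulated data. Members and lists were chosen with earlier results of these data known. Values on all arrays are given for called members, the 8 largest genotype differences and the 3 largest slope differences per direction, and up to 4 genes per partner list by size; Stk36, Kifap3, Cit and Syt4 were named after their values were seen. Klc2, Kifc1, Cfap99 and Ccnb1 were not measured by a probe set with 1 symbol. Promoters are RefSeq windows (31 of 37 members matched, GRCm38.p6). Alternatives changed the normalization, centring, filter, probe sets, variance model, model terms and arrays used.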

Additional observations from a re-analysis of the deposited data

How the results depend on the processing

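The genotype comparison was made within ages, with age as a factor in the model. The replicate numbers name arrays in accession order and gave no further block. Against 133 genes lower in the null, there were 61 and 16 with the lowest tertile or genes below the median level left out, 237 with each probe set tested, 45 with age left out and 64 without the 2 arrays of high Xist and with age linear. Against 1 gene higher, there were 2 after quantile normalization, 6 after centring, 0 under either filter, 5 with each probe set tested, 3 with a trended or robust prior, 4 with Xist as a covariate, 0 with age left out and 2 without the arrays of high Xist and with age linear, and 11 to 14 without both arrays of 1 age. Of the 3 kinesins lower, 0 were called with genes below the median left out, where Kif6, Kif9 and Kif27 were not tested, 0 with age left out and 0 without the arrays of high Xist and with age linear, and 2 to 3 without both arrays of 1 age; for the settings without age or without the arrays of high Xist the cause was not tested. With age linear on all arrays the adjusted p of Kif6, Kif9 and Kif27 was 0.00565, 0.0112 and 0.0299. By age, with genes below the median left out, 20 kinesins were tested, 2 of them of mitosis. Of these 20, 6 were lower and 1 higher, and no called member tested there lost its call. With genotype left out, 1 kinesin was higher. Without single arrays 9 to 15 kinesins were lower and 0 to 2 higher, and over all genes 636 to 1506 were lower and 708 to 1749 higher. Kif3b was not called by age after centring (adjusted p = 0.052) or with a trended prior (0.0553), nor Kif14 with probe sets averaged (0.0709). Kif11, Kif4, Kif23, Kif2c, Kif20a, Kif20b, Kif18a and Kif21b kept their age calls under every alternative that tested them. Slope calls over all genes numbered 0 to 7 lower and 0 to 2 higher without single arrays. Slope differences changed sign without the null array of day 1 for Kif12 (0.31), Kif15 (-0.68) and Kif2c (-0.14), and without the wildtype array of day 14 for Kif2c (-0.04); over all single arrays left out, the ranges were -1.02 to 0.31, -0.68 to 2.50 and -0.14 to 1.21. Signal over background could not be judged from the RMA values.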

Other observations

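Of the 37 kinesins 5 had a second probe set, and these did not always give the same call with age when each was tested on its own. For Kif1c the second probe set (10377982) rose by day 14 (0.53, limma adjusted p = 0.0327) and the brightest had 0.26 (adjusted p = 0.287). For Kif26b the second (10352152) fell (-0.53, adjusted p = 0.036) and the brightest had -0.29 (adjusted p = 0.152). For Kif14 the brightest fell (-0.57, adjusted p = 0.021) and the second (10350329) had -0.19 (adjusted p = 0.397). For Kif7 the second (10564777) had -0.22 and the brightest 0.02.

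Outside the members, Kifc2, a minus-end kinesin of neurons, rose with age by 1.51-fold (0.60, limma adjusted p = 0.016). It was the only one called of the 12 measured genes listed as kinesin partners. Ift22, of intraflagellar transport, rose by 1.49-fold (0.57, adjusted p = 0.0328), and Cfap74, of the central pair, by 1.54-fold (0.62, adjusted p = 0.048).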
